A study of Mus musculus with 12 samples.

Results

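The 10 genes described here encode the enzymes and coat proteins through which cells store and release triglyceride: Pnpla2, Lipe, Mgll, Abhd5, G0s2, Plin1, Plin2, Plin4, Plin5 and Cidec. They were taken by symbol from a table of 22276 gene symbols, and all 10 had a value in every library. RNA-seq had been run on white fat (white adipose tissue, WAT), brown fat (brown adipose tissue, BAT), liver and quadriceps muscle. The donors were male C57BL/6J mice kept on normal chow (NCD) or on high fat food (HFD) between 8 and 17 weeks of age. From 10 to 17 weeks the mice were gavaged weekly with narciclasine (ncls), a plant alkaloid, or with its vehicle (veh), a cyclodextrin solution. There were 3 groups, chow with vehicle (NCD-veh), fat with vehicle (HFD-veh) and fat with narciclasine (HFD-ncls), and each of the 4 organs had 1 library per group, 12 in all. The question was how the diet, and then ncls on that diet, bore on each organ. The number of mice behind a library is not stated in the sources used here.

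Triglyceride in fat cells is broken down in steps. Pnpla2, also known as ATGL, removes the first fatty acid, Lipe (hormone-sensitive lipase) the next, and Mgll (monoglyceride lipase) the last. Abhd5 (CGI-58) is the co-activator of ATGL and G0s2 is its inhibitor, while the perilipins coat the droplet surface and control the access of these enzymes to it. Cidec lets small droplets pass their lipid into larger ones, and is known for the single large droplet of the white fat cell.

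Values are FPKM, fragments per kilobase of transcript scaled to the mapped fragments of the library, so levels can be set side by side between genes. Where 3 values follow each other for an organ, they stand for NCD-veh, then HFD-veh, then HFD-ncls. Depth was not given with the table. Steps of whole fragments among the lowest values put it at about 20200000 to 28500000 fragments per library, and the fewest fragments behind a member at 1 FPKM or more were about 68, for Cidec in NCD-veh liver. With 1 library per organ and group, no difference between groups had a replicate check, and none was tested. The organ labels were checked against marker genes. Adipoq ranged from 1600 to 2849 FPKM in WAT, the thermogenic gene Ucp1 from 740 to 770 in BAT, Apoa1 from 9999 to 13444 in liver and Ckm from 15744 to 16456 in muscle. RNA typical of another organ was found in several libraries. The 8 hepatocyte markers summed to 525 FPKM in HFD-veh muscle against 0.718 and 1.74 in the other muscle libraries. Over the 7 with a liver value, all but Alb, the median ratio of HFD-veh muscle to HFD-veh liver was 0.723% (0.518% to 0.795%). In WAT the 8 hepatocyte markers summed to 6.05, 53.4 and 203 FPKM. Skeletal muscle markers summed to 1882, 777 and 112 FPKM in BAT, and to 61.7 in HFD-veh liver against 2.14 and 3.11 in the other liver libraries.

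The members lie on 6 chromosomes of the mm9 genome, and 2 of them are neighbours. Plin4 (chr17:56240014-56249225) and Plin5 (chr17:56251024-56257019) are on the minus strand with 1798 bases between them, and Plin3, the perilipin that is not among the members, lies on the same strand at chr17:56418385-56429934. The 250 bases before the RefSeq start (GRCm38.p6 promoter table, each matched exactly to 1 place in mm9) are shown for this pair, whose levels in WAT and BAT stood in opposite order, and for G0s2 and Cidec, the members that differed most between HFD-ncls and HFD-veh liver. They read 5′ to 3′ on the gene's strand. Capitals mark TATAA, searched on the gene's strand, and AGGTCA, the nuclear receptor element, searched on both strands. The windows are chr17:56249206-56249455 for Plin4, chr17:56256972-56257221 for Plin5, chr1:195099383-195099632 for G0s2 and chr6:113385755-113386004 for Cidec. Plin5 and Cidec each have 2 listed starts, and the window shown is that of the start further upstream.
Plin4: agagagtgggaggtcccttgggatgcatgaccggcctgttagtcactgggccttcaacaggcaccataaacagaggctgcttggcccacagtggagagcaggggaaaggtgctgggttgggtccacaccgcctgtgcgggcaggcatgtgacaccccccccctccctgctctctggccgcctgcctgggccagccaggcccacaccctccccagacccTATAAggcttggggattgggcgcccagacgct
Plin5: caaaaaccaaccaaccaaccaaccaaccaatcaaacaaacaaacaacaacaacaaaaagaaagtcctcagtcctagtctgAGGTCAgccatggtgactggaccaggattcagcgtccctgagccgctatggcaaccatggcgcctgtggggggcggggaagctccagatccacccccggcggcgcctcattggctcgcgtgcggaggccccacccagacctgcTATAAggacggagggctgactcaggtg
G0s2: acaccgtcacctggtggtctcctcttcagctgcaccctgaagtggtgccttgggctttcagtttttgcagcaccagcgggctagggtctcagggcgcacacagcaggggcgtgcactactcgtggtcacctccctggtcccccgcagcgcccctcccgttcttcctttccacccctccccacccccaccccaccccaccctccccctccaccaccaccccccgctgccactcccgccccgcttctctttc
Cidec: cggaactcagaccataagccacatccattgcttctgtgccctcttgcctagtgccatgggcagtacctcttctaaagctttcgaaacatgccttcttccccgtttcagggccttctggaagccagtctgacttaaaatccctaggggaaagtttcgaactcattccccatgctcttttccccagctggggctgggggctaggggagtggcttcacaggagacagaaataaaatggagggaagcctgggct

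TATAA was present in the windows shown for Plin4, 32 bases before the start, and for Plin5, 27 bases before it, and in those of no other member. It occurred in 16.0% of 32851 mouse windows. AGGTCA was present for Plin5, Plin2 and Abhd5, at 170, 218 and 69 bases before the start, against 14.0% of all windows. The Plin5 window that is not shown held neither TATAA nor AGGTCA. The element CACGTG was in a window of Mgll and of Lipe, against 6.02%. The direct repeat of AGGTCA with 1 base between its copies was in no member's window and in 0.0335% of all. The longest run of bases that the Plin4 and Plin5 windows shared was 8. These are matches of letters in short windows, and the members' binding by any factor was not measured.

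All 3 lipases were highest in the fat depots, with a different order of organs for each. Pnpla2 was highest in BAT, at 1101, 879 and 931 FPKM. WAT had 851, 678 and 599 FPKM, muscle had 110.1, 72.7 and 118 FPKM, and liver had 40.6, 33.4 and 37.5 FPKM. No organ's range overlapped the next, and the smallest step, between WAT and BAT, was a log2 difference of -0.46 ± 0.19 (SE; limma, adjusted p = 0.0427). That call was lost without the NCD-veh libraries (-0.51), without the HFD-ncls libraries (-0.37) and with no filter on FPKM (-0.46). Lipe was confined more closely to fat, at 652, 551 and 519 FPKM in WAT and 271, 307 and 293 FPKM in BAT. It reached only 10.8, 12.1 and 14.4 FPKM in muscle and 5.79, 7.68 and 7.55 FPKM in liver. The WAT level of Lipe exceeded that of liver by 6.34 ± 0.14 on the log2 scale (SE; limma, adjusted p = 3.0e-11). Mgll held a higher level in liver than the other lipases did. Its values were 404, 530 and 483 FPKM in WAT, 194, 225 and 192 FPKM in BAT, 73.8, 81.2 and 101 FPKM in liver, and 10.0, 15.4 and 15.1 FPKM in muscle. As a share of the summed lipase FPKM, Mgll therefore came to 61.4%, 66.4% and 69.2% in liver, where Pnpla2 made up 25.7% to 33.8%. In muscle the order was turned about, with Pnpla2 at 84.1%, 72.5% and 80.0% of the sum and Mgll at 7.65%, 15.4% and 10.2%.

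The partners of ATGL had unlike organ patterns. Abhd5, the co-activator, was modest everywhere, at 35.7, 45.6 and 38.9 FPKM in WAT and 17.5, 18.6 and 15.5 FPKM in BAT. Its WAT level exceeded that of BAT by 1.21 on the log2 scale, or by 0.47 after quantile normalization. In muscle it had 8.67, 9.07 and 8.41 FPKM and in liver 6.49, 7.41 and 6.83 FPKM. The step from muscle to liver was its smallest, 0.33 on the log2 scale, and passed the test (liver minus muscle -0.33 ± 0.11, SE; limma, adjusted p = 0.0176). It no longer passed without the NCD-veh libraries (-0.29), the HFD-ncls libraries (-0.35) or the HFD-veh muscle library (-0.30). G0s2, the inhibitor, was also high in liver, where its level was above that of both fat depots in NCD-veh and below both in HFD-ncls. It stood at 192, 211 and 175 FPKM in WAT, 156.7, 156.7 and 212 FPKM in BAT, 284, 173 and 51.0 FPKM in liver, and 7.83, 11.5 and 7.24 FPKM in muscle. The ranges of WAT, liver and BAT overlapped, and no difference among these 3 organs passed the test. WAT and BAT differed by 0.15 ± 0.47 (SE; limma, adjusted p = 0.784), BAT and liver by 0.35 ± 0.47 (adjusted p = 0.532), and WAT and liver by 0.50 ± 0.47 (adjusted p = 0.34). The FPKM of Pnpla2 per FPKM of G0s2 was 3.21 to 4.44 in WAT, 4.39 to 7.03 in BAT and 6.31 to 16.3 in muscle. In liver it was below 1 in each library, at 0.143, 0.193 and 0.735, so that only there did the FPKM of the inhibitor exceed that of the lipase.

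**Figure D1:**
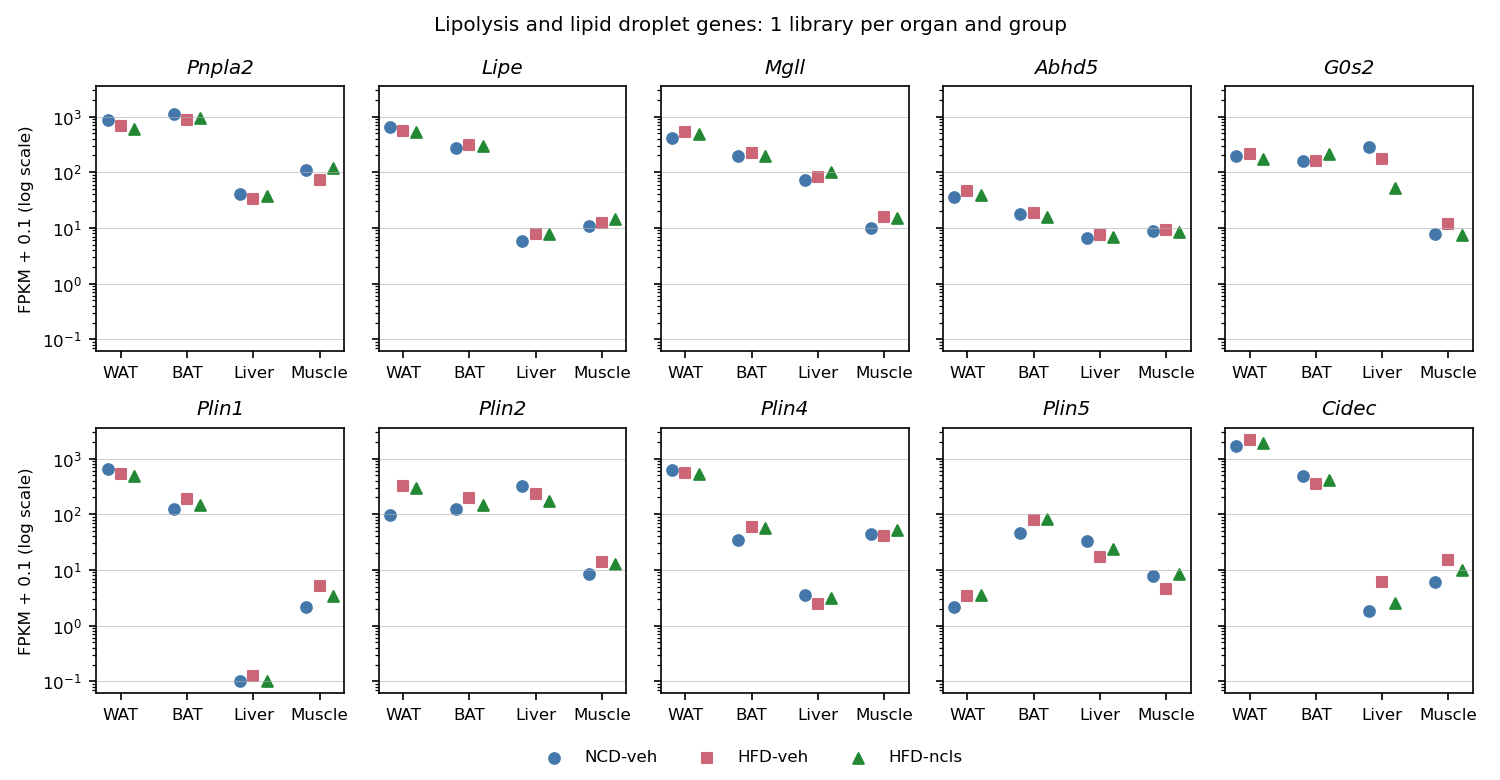
FPKM + 0.1 (log scale) of each member in the 12 libraries by organ, 1 point per library, with blue circles for NCD-veh, red squares for HFD-veh and green triangles for HFD-ncls. Plin1 in liver lies at the bottom of the axis (listed at 0 in 2 libraries), and Plin5 is the member whose WAT points, 2.10 to 3.49 FPKM, lie below those of all other organs.

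The perilipins differed from each other in organ pattern. Plin1, the perilipin of the fat cell, was at 660, 532 and 493 FPKM in WAT and 124.8, 185 and 144 FPKM in BAT. In muscle it had 2.02, 4.97 and 3.36 FPKM. In liver it was listed at 0 in NCD-veh and HFD-ncls and at 0.0246 FPKM, about 1 fragment, in HFD-veh, so no fold is given. Plin4, which is also a coat protein of fat, was at 626, 541 and 521 FPKM in WAT. It had 34.5, 58.6 and 55.8 FPKM in BAT and 44.5, 40.0 and 51.2 FPKM in muscle, ranges that overlapped, and 3.38, 2.32 and 3.05 FPKM in liver. The WAT level exceeded that of BAT by 3.54 ± 0.20 on the log2 scale (SE; limma, adjusted p = 5.7e-08), while BAT and muscle differed by 0.10 ± 0.20 (adjusted p = 0.669). Plin5, known as the perilipin of oxidative tissues, ran the other way: it had 2.10, 3.25 and 3.49 FPKM in WAT and 45.7, 79.9 and 80.6 FPKM in BAT. In liver it was at 32.4, 17.3 and 23.5 FPKM and in muscle at 7.68, 4.50 and 8.18 FPKM. Its difference between WAT and BAT was -4.48 ± 0.31 (SE; limma, adjusted p = 2.1e-07), opposite in sign to that of its neighbour Plin4. Quantile normalization of the libraries widened it to -5.89 and left that of Plin4 at 3.61. The FPKM of Plin4 per FPKM of Plin5 was 299, 167 and 149 in WAT, 5.79, 8.89 and 6.25 in muscle, 0.754, 0.734 and 0.692 in BAT and 0.104, 0.134 and 0.130 in liver.

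Plin2, the perilipin found on droplets of most cells, was at 95.2, 318 and 299 FPKM in WAT, 121.6, 197 and 146 FPKM in BAT, 322, 228 and 176 FPKM in liver, and 8.33, 13.8 and 12.5 FPKM in muscle. WAT, liver and BAT overlapped in range, and WAT and liver differed by -0.17 ± 0.42 on the log2 scale (SE; limma, adjusted p = 0.713). NCD-veh decided this, since without its libraries Plin2 passed the test as higher in WAT, by 0.62 over liver and 0.86 over BAT. Cidec was the member with the highest level, at 1685, 2142 and 1886 FPKM in WAT and 486, 348 and 408 FPKM in BAT. It had 5.89, 15.2 and 9.77 FPKM in muscle and 1.75, 5.88 and 2.43 FPKM in liver. The WAT level exceeded that of muscle by 7.62 ± 0.40 (SE; limma, adjusted p = 9.5e-09). Plin3, an exchangeable perilipin, was at 25.0, 28.4 and 30.9 FPKM in WAT, 47.9, 35.5 and 42.8 FPKM in BAT, 13.5, 15.9 and 14.6 FPKM in liver, and 11.4, 4.99 and 7.33 FPKM in muscle.

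As shares of the summed FPKM of the 5 perilipins, each organ had its own makeup. In NCD-veh WAT, Plin1 made up 46.9% and Plin4 44.5%, against 0.149% for Plin5. BAT was mixed, with 33.3% Plin1, 32.5% Plin2, 12.8% Plin3, 9.20% Plin4 and 12.2% Plin5. Liver was led by Plin2 at 86.7%, followed by Plin5 at 8.73%, and muscle by Plin4 at 60.2%. The leading gene of WAT was Plin1 in NCD-veh but Plin4 in HFD-veh (38.0% against 37.4%) and HFD-ncls (38.7% against 36.6%). In BAT it was Plin1 in NCD-veh (33.3% against 32.5% for Plin2). It was Plin2 in HFD-veh (35.4% against 33.3% for Plin1) and HFD-ncls (31.1% against 30.6%). These margins are small and come from single libraries. Liver and muscle kept Plin2 and Plin4 as their leading perilipin in all groups.

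**Figure D2:**
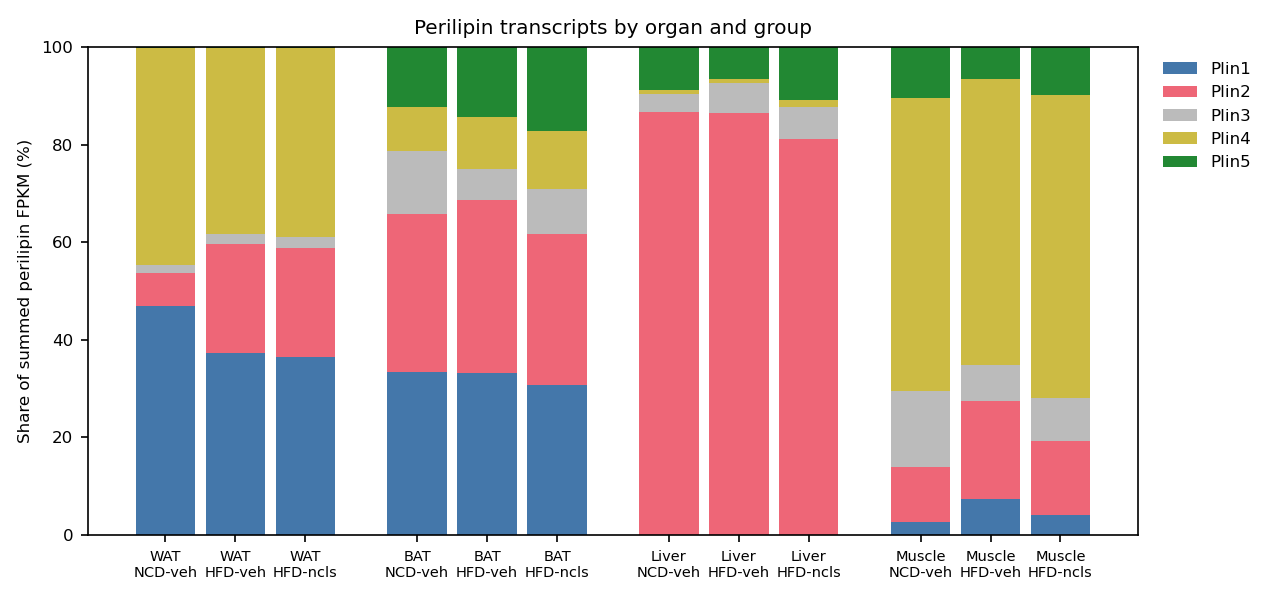
Share of the summed FPKM of the 5 perilipin genes (%, stacked bars) in each of the 12 libraries, 1 bar per library. In WAT the Plin2 band is 6.76% in NCD-veh and 22.3% and 22.2% in HFD-veh and HFD-ncls, and in liver it is 81.1% to 86.7%.

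Across organs the test was limma on log2(FPKM + 0.1), with the 3 libraries of an organ, which differ in diet and treatment, as its spread. WAT differed from BAT at an adjusted p below 0.05 for 8 members, 6 higher and 2 lower in WAT, and from liver for 8 members, 7 higher and 1 lower. From muscle it differed for all 10, with 9 higher and Plin5 lower. BAT exceeded liver for 8 members and muscle for 9, and none was lower in BAT. Liver differed from muscle for all 10, with 4 higher in liver (Mgll, G0s2, Plin2 and Plin5) and 6 lower. Most genes were called between organs, so these counts stand near their background. The same test called 78.5% of 13648 genes between WAT and BAT, 82.5% between WAT and liver, 83.1% between WAT and muscle, 67.4% between BAT and liver, 68.9% between BAT and muscle and 75.1% between liver and muscle. The sizes stood further apart for the pairs of a fat depot with liver or muscle. The members' median difference was 3.38 between WAT and liver and 4.32 between WAT and muscle, against 1.00 and 1.20 over all genes, and 2.75 and 3.83 between BAT and these organs, against 0.15 and 0.28. For WAT against BAT it was 1.09 against 0.97, and for liver against muscle -0.58 against 0.09. Values were not rescaled between organs, so a shift over all genes enters the organ differences, those of WAT the most.

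Between HFD-veh and NCD-veh, WAT had a higher level of Plin2, the droplet coat of most cells, and few other differences among the members. Plin2 was at 95.2 FPKM in NCD-veh and 318 FPKM in HFD-veh, a log2 difference of 1.74, or 3.34-fold with a 95% interval of 3.22 to 3.47 that covers counting error only. Plin5 was 0.61 higher on the log2 scale at its low level of 2.10 and 3.25 FPKM. These 2 were the members past 1.4-fold higher in WAT, and none was past 1.4-fold lower, against 16.3% and 13.0% of 12208 genes. The members' median difference was 0.24 against 0.03 over all genes. Pnpla2 (-0.33), Lipe (-0.24), Plin1 (-0.31) and Plin4 (-0.21) were lower and Mgll (0.39), Abhd5 (0.35) and Cidec (0.35) higher, each within 1.4-fold. Beside them, 5 of 8 adipocyte markers in WAT were past 1.4-fold lower, their sum going from 40403 to 26367 FPKM, and 1, Lep, was past it higher, at 300.2 and 1198.5 FPKM. Of 6 macrophage markers, 5 reached 1 FPKM and 4 were past 1.4-fold higher, with a median difference of 1.77, as large as that of Plin2. Cd68 went from 49.5 to 198 FPKM, and the sum, most of it Lyz2, from 571 to 851 FPKM. The part of cell content in the Plin2 difference was not tested, and in whole tissue fewer cells of a type and less RNA per cell cannot be told apart.

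In BAT, 4 perilipins were past 1.4-fold higher in HFD-veh, against 9.34% of 10444 genes, and no member was past it lower, against 8.23%. Plin1 went from 124.8 to 185 FPKM (0.57), Plin2 from 121.6 to 197 FPKM (0.69), Plin4 from 34.5 to 58.6 FPKM (0.76) and Plin5 from 45.7 to 79.9 FPKM (0.80). Plin3 did not share this direction (-0.43), nor did Cidec, at 486 and 348 FPKM (-0.48). The summed perilipin FPKM of BAT was 374 in NCD-veh and 556 in HFD-veh, while that of WAT was 1409 and 1423. All 8 skeletal muscle markers were lower in HFD-veh BAT. Subtracting the muscle share, 1.96% of the muscle level in NCD-veh and 0.755% in HFD-veh, left the same 4 members past 1.4-fold. Shares of this size could change little, with Plin4 going from 0.76 to 0.79. The part of other cell content was not tested.

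In liver, Plin2, Plin4 and Plin5 were lower in HFD-veh, and so was G0s2. G0s2 was at 284 FPKM in NCD-veh and 173 FPKM in HFD-veh (-0.72), Plin2 at 322 and 228 FPKM (-0.50), Plin4 at 3.38 and 2.32 FPKM (-0.52) and Plin5 at 32.4 and 17.3 FPKM (-0.90). These 4 were past 1.4-fold lower, against 10.5% of 10016 genes. Cidec, the droplet fusion gene, was alone past 1.4-fold higher, against 13.3%, going from 1.75 to 5.88 FPKM, a difference of 1.70 or 3.37-fold (counting interval 2.56 to 4.49). Adipoq, Lep and Retn, which define the fat cell, were at 0 in all liver libraries, and Plin1 was at about 1 fragment or none. Of the 8 adipocyte markers, 4 reached 1 FPKM in liver. Among these 4, 3 were past 1.4-fold higher in HFD-veh and 0 lower, with a median difference of 0.90. Cfd was at 0.163 FPKM in NCD-veh and 10.2 FPKM in HFD-veh liver, Fabp4 at 4.29 and 6.90 FPKM, and Car3 at 1107 and 2415 FPKM. The part of cell content in the Cidec difference was not tested. The members' median difference was -0.28 over the 9 that reached 1 FPKM in liver, against 0.04 over all genes.

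Muscle had the most members past 1.4-fold, 5 higher and 2 lower, against 7.74% and 5.52% of 9587 genes. Cidec went from 5.89 to 15.2 FPKM (1.35), Plin1 from 2.02 to 4.97 FPKM (1.26), Plin2 from 8.33 to 13.8 FPKM (0.72), Mgll from 10.0 to 15.4 FPKM (0.62) and G0s2 from 7.83 to 11.5 FPKM (0.55). Pnpla2, the first lipase, was lower, at 110.1 and 72.7 FPKM (-0.60), and so was Plin5, at 7.68 and 4.50 FPKM (-0.76). Plin3 went the way of Plin5, from 11.4 to 4.99 FPKM (-1.18). With the liver share of HFD-veh muscle subtracted, 6 members stayed past 1.4-fold. G0s2 did not, with a difference of 0.39, since a liver share of this size would carry 1.25 of its 11.5 FPKM. It would carry 1.65 FPKM of Plin2, 0.587 FPKM of Mgll and at most 0.241 FPKM of any other member.

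Adipocyte markers moved in muscle together with Plin1 and Cidec. Of 8 markers, 5 were past 1.4-fold higher in HFD-veh muscle and 1 lower, with a median difference of 0.97, although the list's sum was 852 and 794 FPKM. Adipoq was at 11.4, 21.1 and 14.3 FPKM in muscle and Lep at 0.133, 5.04 and 1.60 FPKM, while Cfd, the marker that was lower, was at 76.7, 33.4 and 43.9 FPKM. As a percent of the WAT level in the same group, Adipoq was at 0.401%, 1.25% and 0.892%, Plin1 at 0.306%, 0.933% and 0.682%, and Cidec at 0.350%, 0.708% and 0.518%. The 8 markers spanned 0.0441% to 3.75% in NCD-veh, 0.42% to 8.96% in HFD-veh and 0.15% to 5.84% in HFD-ncls, with Lep lowest in each. Car3 was highest in NCD-veh, Pck1 in HFD-veh and Cfd in HFD-ncls. The WAT level of Pck1 was 836 FPKM in NCD-veh and 141 FPKM in HFD-veh. So wide a span separates little. Plin1 and Cidec lay inside this span in every group, as did Lipe (1.66%, 2.20% and 2.78%) and Mgll (2.48%, 2.91% and 3.13%). Pnpla2, at 12.9%, 10.7% and 19.8% of WAT, Abhd5, at 24.3%, 19.9% and 21.6%, and Plin5, at 366%, 138% and 235%, were above it in every group. The part of fat cells within the muscle samples in the Plin1 and Cidec differences was not tested.

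**Figure D3:**
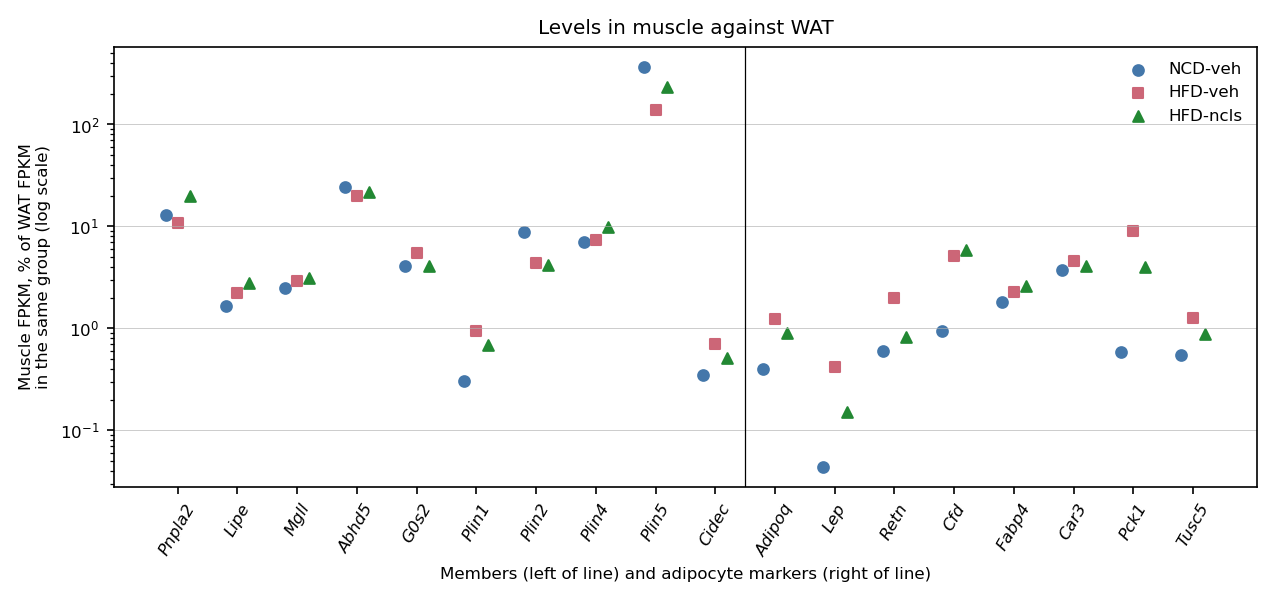
Muscle FPKM as a percent of WAT FPKM in the same group (log scale) for the 10 members, left of the line, and 8 adipocyte markers, right of it, with 1 point per group. Plin1 and Cidec lie at 0.306% to 0.933%, inside the span of the 8 markers in each group, and Plin5 is the one gene above 100%.

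Between HFD-ncls and HFD-veh, no member was past 1.4-fold in WAT or BAT. WAT had 6.39% of 12152 genes past it higher and 1.28% lower, and BAT 2.25% and 6.28% of 10331 genes. In WAT the differences of the members ran from -0.27 (G0s2) to 0.10 (Plin5), with Pnpla2 at 678 and 599 FPKM (-0.18) and Plin2 at 318 and 299 FPKM (-0.09). The Plin2 level of HFD-ncls WAT was thus 3.14 times that of NCD-veh. In BAT, G0s2 was at 156.7 and 212 FPKM (0.44) and Plin2 at 197 and 146 FPKM (-0.43), the largest differences there, and Plin5 at 79.9 and 80.6 FPKM (0.01). The members' medians were -0.12 in WAT and -0.07 in BAT, against 0.04 and -0.02 over all genes.

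In HFD-ncls liver, the ATGL inhibitor G0s2 was at 51.0 FPKM, against 173 FPKM in HFD-veh, a difference of -1.76 or a ratio of 0.296 (counting interval 0.273 to 0.319). Cidec was at 2.43 against 5.88 FPKM (-1.24, ratio 0.413, counting interval 0.320 to 0.527). These were the only members past 1.4-fold lower in liver, against 8.07% of 9956 genes, and none was past it higher, against 6.88%. Their courses over the groups differed. Cidec was highest in HFD-veh and 1.39 times its NCD-veh level in HFD-ncls. G0s2 stepped down in both comparisons and ended at 0.180 of its NCD-veh level. Plin2 followed G0s2 in order, at 322, 228 and 176 FPKM, while Plin5 (0.44) and Plin4 (0.38) stood above their HFD-veh level. The lipases differed little, with Pnpla2 at 33.4 and 37.5 FPKM (0.17), Lipe at 7.68 and 7.55 FPKM (-0.02) and Mgll at 81.2 and 101 FPKM (0.32). Skeletal muscle markers differed between the same libraries, at 61.7 and 3.11 FPKM summed. The muscle share in HFD-veh liver was 0.0618%. Subtracting a share of this size could change little, and it took Cidec from 5.88 to 5.87 FPKM and left G0s2 at 173 FPKM. The part of other cell content was not tested.

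In HFD-ncls muscle, Pnpla2 was at 118 against 72.7 FPKM in HFD-veh (0.70, ratio 1.63, counting interval 1.57 to 1.69) and Plin5 at 8.18 against 4.50 FPKM (0.85, ratio 1.82, counting interval 1.55 to 2.15). These 2 were past 1.4-fold higher, against 8.46% of 9694 genes. G0s2 (11.5 and 7.24 FPKM, -0.66), Plin1 (4.97 and 3.36 FPKM, -0.55) and Cidec (15.2 and 9.77 FPKM, -0.63) were past it lower, against 5.48%. Plin3 was at 4.99 and 7.33 FPKM (0.55). The FPKM of Pnpla2 per FPKM of G0s2 was 14.1, 6.31 and 16.3 over the muscle groups. The 8 adipocyte markers had 5 past 1.4-fold lower and none higher, with a median difference of -0.57, and all 8 hepatocyte markers were lower. Both comparisons in muscle share the HFD-veh library, in which the hepatocyte markers were found, so a value particular to that library enters them with opposite signs.

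Without that library, HFD-ncls muscle can be set against NCD-veh muscle. Mgll (10.0 and 15.1 FPKM, 0.59), Plin1 (2.02 and 3.36 FPKM, 0.71), Plin2 (8.33 and 12.5 FPKM, 0.58) and Cidec (5.89 and 9.77 FPKM, 0.72) were past 1.4-fold higher in HFD-ncls, against 6.39% of 9516 genes, and no member was past it lower, against 2.49%. Pnpla2 (110.1 and 118 FPKM, 0.10), Plin5 (7.68 and 8.18 FPKM, 0.09) and G0s2 (7.83 and 7.24 FPKM, -0.11) were within 1.4-fold. For Pnpla2 and Plin5, HFD-veh was thus the library apart from the others.

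**Figure D4:**
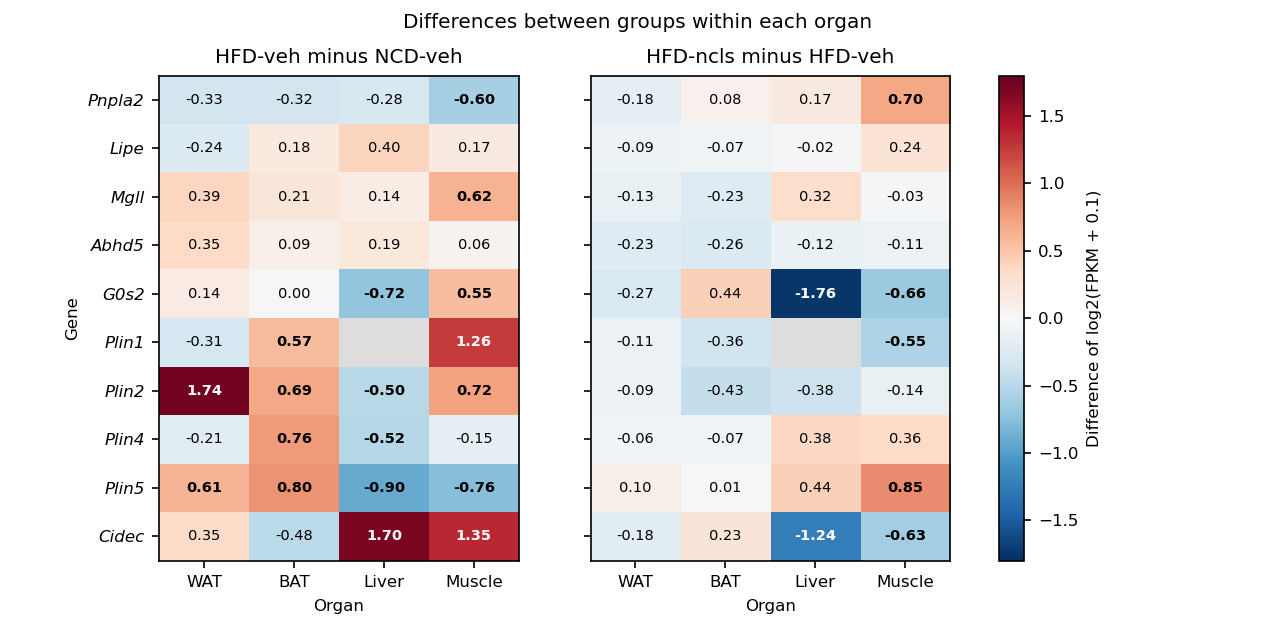
Difference of log2(FPKM + 0.1) for each member and organ, HFD-veh minus NCD-veh on the left and HFD-ncls minus HFD-veh on the right, red where higher and blue where lower, bold where past 1.4-fold. Grey marks Plin1 in liver, which did not reach 1 FPKM. G0s2 in liver is -0.72 on the left and -1.76 on the right, while the WAT and BAT columns on the right hold no bold value.

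Some members kept 1 direction in all 4 organs. Pnpla2 was lower in HFD-veh than in NCD-veh in each, by -0.28 to -0.60, which held for 5.74% of 7881 genes, and Mgll (0.14 to 0.62) and Abhd5 (0.06 to 0.35) were higher in each, which held for 7.12%. In HFD-ncls against HFD-veh, Abhd5 (-0.11 to -0.26) and Plin2 (-0.09 to -0.43) were lower in each organ, against 5.99% of 7913 genes, and Plin5 was higher in each (0.01 to 0.85), against 9.00%. Most of these differences were within 1.4-fold. Between HFD-veh and NCD-veh, the counting interval of the ratio included 1 for Abhd5 in BAT and muscle. With ncls it included 1 for Abhd5 in liver and muscle, Plin5 in WAT and BAT, and Plin2 in muscle. With the liver share of HFD-veh muscle subtracted, the Plin2 difference with ncls in muscle was 0.05 and no longer lower. The FPKM of Pnpla2 per FPKM of Abhd5, the lipase over its co-activator, combines directions given above. This ratio was lowest in the HFD-veh library of every organ, in WAT by a small margin. It was 23.8, 14.9 and 15.4 in WAT, 63.1, 47.2 and 60.1 in BAT, 6.26, 4.51 and 5.50 in liver, and 12.7, 8.02 and 14.1 in muscle. No share over other pairs of genes was computed.

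Other genes of the pathway were drawn from 3 lists. Counts past 1.4-fold are given with the number of list genes at 1 FPKM or more in the organ, and are to be read against the shares of all genes past it: higher and lower, 16.3% and 13.0% in WAT, 9.34% and 8.23% in BAT, 13.3% and 10.5% in liver and 7.74% and 5.52% in muscle between HFD-veh and NCD-veh, and 6.39% and 1.28%, 2.25% and 6.28%, 6.88% and 8.07%, and 8.46% and 5.48% with ncls. Of 13 other droplet proteins, 9 reached 1 FPKM in WAT, 11 in BAT and 10 each in liver and muscle. Between HFD-veh and NCD-veh, 2 were past 1.4-fold higher and 0 lower in WAT, 1 and 2 in BAT, 2 and 0 in liver, and 3 and 2 in muscle. Between HFD-ncls and HFD-veh, the counts were 1 and 0 in WAT, 1 and 1 in BAT, 0 and 1 in liver, and 1 and 2 in muscle. Hilpda, a small inhibitor of ATGL, went from 6.42 to 16.0 FPKM in BAT with ncls (1.30), beside the higher G0s2 there. Of 10 other lipases and partners, 9 reached 1 FPKM in WAT, BAT and liver and 8 in muscle. Among them, 2 were higher and 2 lower in HFD-veh WAT, 3 and 2 in BAT, 2 and 1 in liver, and 3 and 1 in muscle. With ncls the counts were 0 and 0 in WAT, 1 and 0 in BAT, 0 and 1 in liver, and 2 and 2 in muscle. Lipa, the lysosomal acid lipase, was at 29.3 FPKM in NCD-veh and 78.1 FPKM in HFD-veh WAT (1.41), in the same direction as Plin2. The carboxylesterases Ces1d (597 and 198 FPKM, -1.59) and Ces1f (71.9 and 28.9 FPKM, -1.31) were lower there. Ces1 genes are near copies of each other, so their division of reads is uncertain.

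Of 13 genes that control lipolysis, 11 reached 1 FPKM in WAT and BAT, 7 in liver and 9 in muscle (8 with ncls). Among them, 1 was higher and 3 lower in HFD-veh WAT, 3 and 2 in BAT, 0 and 1 in liver, and 3 and 1 in muscle. With ncls, the counts were 1 and 1 in WAT, 0 and 2 in BAT, 0 and 0 in liver, and 1 and 3 in muscle. Adrb3, the adrenergic receptor of fat cells, went in opposite directions in the fat depots. It was at 212, 67.0 and 70.4 FPKM in WAT and at 13.4, 51.9 and 24.5 FPKM in BAT, which gives -1.66 and 1.95 between HFD-veh and NCD-veh and -1.08 with ncls in BAT. In WAT, Pde3b, which breaks down the cyclic AMP that drives lipolysis, was at 96.1, 54.8 and 46.7 FPKM. The antilipolytic receptor Adora1 was at 14.4, 28.1 and 36.3 FPKM, and Pnpla3, an ATGL relative, at 48.3, 58.4 and 101 FPKM. Between HFD-ncls and NCD-veh WAT the differences were -1.04 for Pde3b, 1.33 for Adora1 and 1.07 for Pnpla3. The HFD-veh level lay nearer to HFD-ncls than to NCD-veh for Pde3b and Adora1, and nearer to NCD-veh for Pnpla3.

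Over the 12 libraries, the profile of each member could be set beside that of every other gene. The closest to Plin1 was Lgals12, a lectin of the fat cell (Pearson r = 0.996), followed by Fli1 (0.995) and Tmem45b (0.994). Negr1 was the closest to Lipe (0.996), followed by Irs3 (0.995) and the fatty acid receptor Ffar4 (0.995). That of Pnpla2 was Ier5l (0.992), followed by Dgkd (0.991) and Adig (0.988), a fat cell gene. Abhd5 was nearest to S100a11 (0.995), Mgll to Ywhaq (0.995), Plin4 to Exoc6b (0.994) and Cidec to Purb (0.993). The members with the least fat-bound profiles had lower best values, at 0.987 for Plin2 (Gpr182), 0.979 for G0s2 (Tgoln1) and 0.973 for Plin5 (Rab3ip). For Plin2 the next genes were 4930506M07Rik (0.986) and Lipa (0.979). These are descriptions over 12 libraries that fall into 4 organs, so differences between organs enter each value.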

How the data were processed

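RNA of 4 organs from 3 groups of mice was sequenced, 1 library for each of the 12 combinations. Reads were mapped by the authors to mm9 (TopHat), and RefSeq genes were quantified with Cufflinks. The authors deposited FPKM values, 1 per symbol and library, and no further scaling is stated. Grouping followed the sample titles.

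Values were taken as log2(FPKM + 0.1) in R 4.3.3 and Python 3.11.15. Organs were compared with limma 3.58.1 with organ as the only term, 3 libraries each, and Benjamini-Hochberg adjustment over 13648 genes. Groups within an organ have 1 library each, so differences were counted past 1.4-fold, a threshold the study also uses, among genes at 1 FPKM or more in either library. Counting intervals are exact binomial, on fragment numbers estimated from the lowest FPKM steps, of which 63.2% to 71.4% lay within 5% of a whole number. They cover counting error only. The limma step was tested on simulated data for WAT minus BAT with 13648 genes, and found 83 of 100 genes changed by a log2 of 1 and 99 of 100 changed by 2. Of its 191 calls, 9 were false. The simulation held no organ difference in any other gene, unlike the data, so these rates need not hold for the organ calls.

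All 10 members are named, with Plin3, the 3 genes most like each member (the closest for every member, others in part), and pathway genes past 2-fold with 10 FPKM or more in 1 library. The members and lists were chosen with earlier results of these data known. Ldah, Hcar1 and Hcar2 were not found in the table. Alternatives were another pseudocount, filter, fold threshold and scaling, quantile normalization, organ plus group as terms, leaving out the libraries of 1 group or HFD-veh muscle, and 2 chosen after seeing the data: subtraction of another organ's share, and muscle without its HFD-veh library. Protein sequences were not used here.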

Additional observations from a re-analysis of the deposited data

Results flagged for a closer look

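Organs differed in direction between HFD-veh and NCD-veh for 4 members, each past 1.4-fold higher in at least 1 organ and lower in at least 1 other. The share of all genes with such opposite directions was not computed, so this count has no background beside it. With 1 library per group, none of the differences was tested. The difference of log2 differences was 2.24 for Plin2 between WAT (1.74) and liver (-0.50), 1.71 for Plin5 between BAT (0.80) and liver (-0.90), 1.28 for Plin4 between BAT (0.76) and liver (-0.52), and 1.27 for G0s2 between muscle (0.55) and liver (-0.72). The G0s2 value of muscle is 0.39 with the liver share of HFD-veh muscle subtracted.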

How the results depend on the processing

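No paired analysis was possible because the labels give no replicate numbers that tie libraries to each other. With group as a further term, the organ calls again numbered 53. Of 18 calls between HFD-veh and NCD-veh, 4 were left at 2-fold: 1 in WAT (2 at 1.4-fold), 0 in BAT (4), 1 in liver (5) and 2 in muscle (7). Of 7 between HFD-ncls and HFD-veh, 2 were left, both in liver, and 0 in muscle (5). The share of all genes past 2-fold was not computed, so the counts at 2-fold have no background beside them. The WAT count between HFD-veh and NCD-veh was also 1 with a pseudocount of 1 and with a minimum of 5 FPKM. A pseudocount of 1 also put Plin4 in liver (-0.40) and, with ncls, Plin1 in muscle (-0.45) within 1.4-fold. The total of 53 organ calls was 50 to 53 with the libraries of 1 group, or HFD-veh muscle, left out. Cidec between liver and muscle was among the calls lost without the HFD-ncls libraries (-1.53). Quantile normalization gave 53 as well, and moved 13 of 60 organ differences by over 1.5-fold, Plin5 between WAT and muscle the most (-1.16 to -2.64). Subtracting another organ's share left 17 of the 18 and all 7. No called value changed sign. Counting intervals leave out the spread between mice, which single libraries do not show.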
